A study of Oryza sativa with 6 samples.

Results

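Jasmonates are lipid hormones that plants make soon after wounding, attack or other stress. Lipoxygenase adds oxygen to linolenic acid released from plastid membranes, allene oxide synthase (AOS) and allene oxide cyclase (AOC) turn the product into 12-oxophytodienoic acid, and in the peroxisome a 12-oxophytodienoate reductase (OPR) and rounds of beta-oxidation shorten it to jasmonic acid. JAR1 then joins jasmonic acid to isoleucine, and this conjugate is the form that the COI receptors sense. The genes described here are 8 rice loci along that route, taken by locus number: lipoxygenases Os12g0559200, Os08g0508800 and Os08g0509100, the AOS genes Os03g0767000 and Os03g0225900, the AOC gene Os03g0438100, OPR7 at Os08g0459600 and JAR1 at Os05g0586200. They are 8 of the 29923 loci named on the array and carry 20 of its 42477 probes. The rule names the loci by role and uses no measured value, though it was written with earlier results of these data known, and the roles are those of that rule.

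The data are 6 two-colour Agilent rice arrays of root RNA from 6-day-old seedlings of cultivar TN-67. There were 3 arrays of roots exposed to 5 µM copper and 3 of roots exposed to 25 µM cadmium. Each array carried metal-treated root RNA in Cy5 together with water-control root RNA in Cy3, so each spot gives a ratio of metal over water. The labels call the replicates biological but do not say how many plants made up a sample, and the sources used here do not give the length of exposure. Doses differ between the metals, so copper and cadmium are compared at those doses only. The series text names 3 control replicates for 6 arrays, so both metals may have been set against the same water RNA. Dyes were not swapped, so in a ratio of metal over water a dye effect on a probe and an effect of the metal cannot be told apart. A constant dye effect cancels between the metals.

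Copper 2 and 3 and cadmium 2 and 3 lay on 1 slide, whereas copper 1 and cadmium 1 each lay on a slide of its own. The log2 ratios of copper 1 correlated with those of the other copper arrays at 0.811 and 0.840 across genes, against 0.964 between copper 2 and 3. For cadmium 1 the values were 0.826 and 0.802, against 0.950 between cadmium 2 and 3. Outlier spots, which the scanner marks as uneven or deviant, made up 2.85% of spots on copper 1, 1.45% on cadmium 1 and no more than 0.160% elsewhere. Between 75.8% and 81.1% of probes were well above background in the metal channel and between 74.3% and 80.0% in the water channel. The 3 root loci used as a check were above background in water roots on all 6 arrays, and so were 2 of the 3 green-leaf loci that a root sample should lack.

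Among these 8 genes, lipoxygenase, AOS, AOC, OPR7 and JAR1 each had at least 1 gene that rose with copper, while with cadmium 1 AOS gene and JAR1 passed the test. With copper, 7 of the 8 genes were higher than in water (limma, Benjamini-Hochberg adjusted p under 0.05 over 23423 genes), and 5 of them at least 2-fold. Of all genes tested, 25.4% were called higher with copper and 7.44% were called and at least 2-fold higher. With cadmium, 2 of the 8 genes were called higher, an AOS gene and JAR1, where 21.1% of all genes were, so that count is near the share of all genes. These calls use a spread shared by both metals. Fitted on the cadmium arrays alone, AOS Os03g0225900 passed as well. JAR1 alone was at least 2-fold higher with cadmium, against 5.23% of all genes. By limma 0 of the 7 tested genes were called lower with either metal, and 0 at an unadjusted p under 0.05. Of all genes, 17.4% were called lower with copper and 12.9% with cadmium, and for 7 genes a count of 0 is not far from those shares. The difference between the metals passed the test for 5 genes, each higher with copper, against 6.57% of all genes, and 3 of them differed at least 2-fold, against 2.49%. The median log2 change of the 7 tested genes was 1.75 with copper and 0.25 with cadmium, and over all genes tested it was 0.016 with copper and 0.011 with cadmium. One of the 7, lipoxygenase Os08g0508800, passed the filter on dim spots only because of its copper signal. Where only probes above background in both channels on all 6 arrays were tested, 6 genes were called with copper, 2 with cadmium and 4 between the metals.

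**Figure D1:**
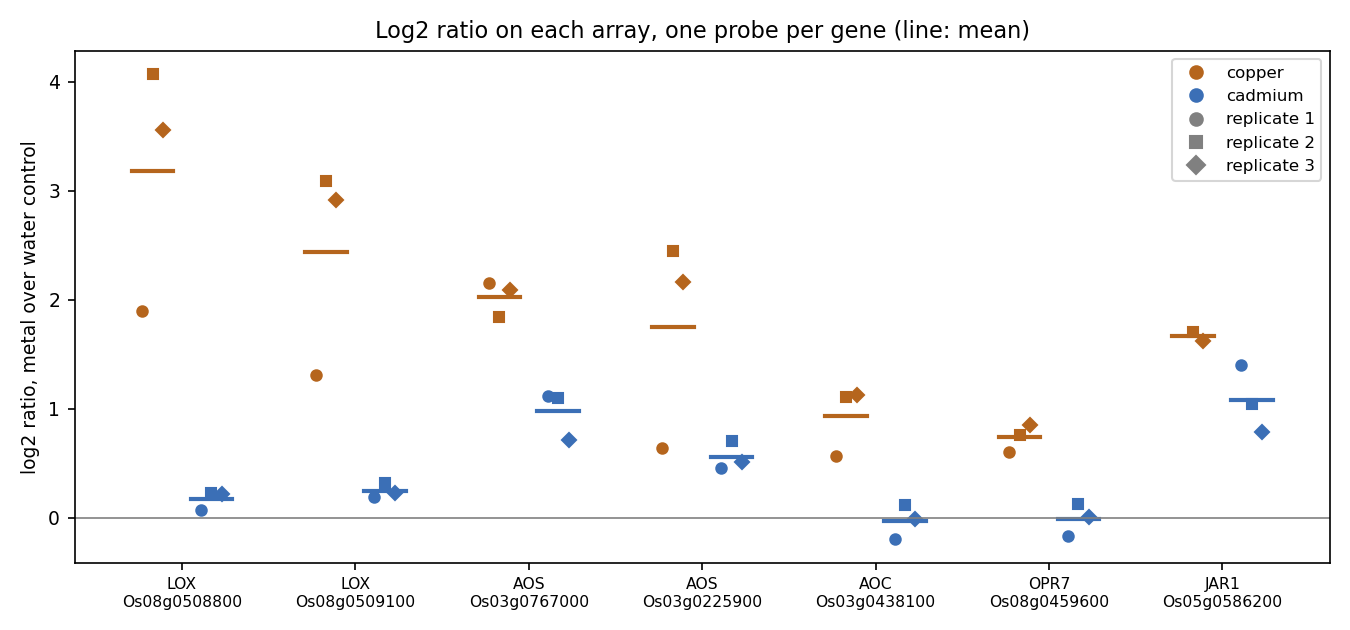
Log2 ratio of metal over water on each array (vertical axis) for the tested probe of each of 7 genes, in pathway order along the horizontal axis; copper points stand left of cadmium points, symbols give the replicate number and lines the mean. JAR1 has 2 copper points because 1 spot was left out. Every copper point shown lies above every cadmium point of the same gene except at Os03g0225900, where copper 1 (0.64) lies below cadmium 2 (0.71).

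The lipoxygenases open the route, although enzymes of this family also feed other oxidised lipids. Lipoxygenase Os08g0508800, on chromosome 8, had the largest copper change of the 8 genes. Its log2 ratios over water were 1.90, 4.07 and 3.56 on copper arrays 1 to 3. On cadmium arrays 1 to 3 they were 0.07, 0.23 and 0.22. Each copper ratio lay well above each cadmium ratio, and copper 1 lay far below the other copper arrays. The probe was well above background in all 3 copper-treated samples, in 2 of 3 cadmium-treated samples and in none of the 6 water samples, so its change over water has a lower bound only. On the mean of the 3 copper arrays, copper-treated roots had at least 9.05-fold the signal of water roots (adjusted p = 0.000285, fitted log2 change 3.18 ± 0.34 SE, n = 3 arrays). The fitted copper change had a 95% interval of 2.385 to 3.970, from a spread shared by both metals. The SD was 1.13 over the copper arrays and 0.09 over the cadmium arrays. The bound of 9.05-fold is the fitted fold itself, because the dim water signal was used as read. It does not allow for the spread between arrays. For cadmium the fitted change was 0.17 (adjusted p = 0.724, 95% interval -0.62 to 0.97). The fitted copper minus cadmium value was 3.01 on the log2 scale (adjusted p = 0.00778), but both of its ratios are over water signals that were not well above background, so it is not a measured size. Without copper 1 the fitted copper change was 3.82 and the fitted copper minus cadmium value 3.64.

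A second probe of Os08g0508800 gave 0.92, 2.80 and 2.59 with copper, against 0.04, -0.24 and 0.20 with cadmium. It was above background in the copper-treated samples and in no cadmium-treated or water sample. It therefore passed the filter on dim spots only through its copper signal. Its mean copper signal was at least 4.23-fold that of water (adjusted p = 0.00159 for the copper change, over all probes tested). That signal was at least 4.45-fold the signal of cadmium-treated roots, a comparison that was not itself tested. The limma test of copper minus cadmium, on ratios over water, gave an adjusted p of 0.0247 over all probes. The 2 probes of this gene both put copper highest, with different sizes. Both were kept only through their copper signal, which favours that order, so their match is no support for it.

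Lipoxygenase Os08g0509100, a near neighbour in the chromosome 8 numbering, followed the same pattern. Its tested probe was above background in both channels on all 6 arrays. It read 1.31, 3.09 and 2.91 with copper, against 0.19, 0.32 and 0.22 with cadmium. The groups did not overlap, and copper 1 was again the lowest copper array. The copper change was 2.44 ± 0.30 (SE, adjusted p = 0.000537), a 5.41-fold rise, and 3.00 without copper 1. That SE rests on the shared spread, while the SD was 0.98 over the copper arrays and 0.07 over the cadmium arrays. The cadmium change was 0.25 (adjusted p = 0.551, 95% interval -0.44 to 0.94), and it passed the test once copper 1 was left out of the shared estimate of spread (adjusted p = 0.0351). Copper exceeded cadmium by 2.19 ± 0.42 (SE, adjusted p = 0.0163). That difference fell short of the threshold without copper 2 (0.0548), copper 3 (0.0635), cadmium 2 (0.0600) or cadmium 3 (0.0591), these being adjusted p-values. Its other 2 probes, dark in water, gave copper signals at least 3.04-fold and at least 1.82-fold those of water. Both of these probes passed the filter on dim spots only through their copper signal. Whether probes of neighbouring lipoxygenases bind each other's transcripts was not tested.

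The third lipoxygenase, Os12g0559200 on chromosome 12, was not tested. None of its 3 probes was above background in enough samples, and only 1 probe was so in the copper-treated channel of 1 array. Its log2 ratios lay between -0.28 and 0.23 with copper and between -0.42 and 0.34 with cadmium, with signals near background in both channels. A fall could not be seen at that level, and no rise brought a probe above background on all 3 arrays of a metal.

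AOS, a cytochrome P450 of the CYP74 family, commits the lipoxygenase product to jasmonate. The AOS gene Os03g0767000 rose with both metals, and more with copper. Its log2 ratios were 2.16, 1.84 and 2.09 on the copper arrays and 1.12, 1.10 and 0.72 on the cadmium arrays. The lowest copper array lay above the highest cadmium array, and each metal's arrays lay close together. On the log2 intensity scale its level was 13.82 ± 0.29 in copper-treated roots, 13.08 ± 0.66 in cadmium-treated roots and 11.94 ± 0.55 in water roots (SD, n = 3, 3 and 6 channels). Copper gave a 4.09-fold rise (log2 2.03 ± 0.11 SE, adjusted p = 8.35e-06) and cadmium a 1.97-fold rise (0.98 ± 0.11 SE, adjusted p = 0.000404). The difference of 1.05 ± 0.15 (SE) passed the test (adjusted p = 0.00478). Its second probe gave changes of 2.08 with copper and 1.04 with cadmium, both past the threshold.

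The second AOS gene, Os03g0225900, rose with copper. Its tested probe read 0.64, 2.45 and 2.17 with copper, against 0.45, 0.71 and 0.51 with cadmium. Here the groups overlapped, because copper 1 lay between the cadmium values. The copper change was 1.75 ± 0.30 (SE, adjusted p = 0.00258), or 3.37-fold. Here too the spread is shared, and the SD was 0.97 over the copper arrays and 0.13 over the cadmium arrays. The cadmium change was 0.56 (adjusted p = 0.182, 95% interval -0.13 to 1.24). Fitted on the cadmium arrays alone, it passed the test (adjusted p = 0.00865). The difference between metals was 1.20 ± 0.42 (SE, adjusted p = 0.118, 95% interval 0.22 to 2.17). Without copper 1, copper rose by 2.31, the cadmium change passed the test (adjusted p = 0.00315) and so did the difference, at 1.75 (adjusted p = 0.000608).

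The other 3 probes of Os03g0225900 also rose with copper, by 0.80 to 1.38 on the log2 scale. The probe at 0.80 passed the filter on dim spots only through its copper signal. Another of the 3 had even copper arrays, at 1.28, 1.47 and 1.40, against 0.39, 0.68 and 0.55 with cadmium. For that probe the cadmium change of 0.54 and the difference of 0.84 both passed the test (adjusted p = 0.00232 and 0.00455 over all probes). It was above background in only 3 of the 6 water samples, as were the other 2 probes that were not chosen for the test. Over the mean of all 4 probes the difference between metals was 0.91 and passed (adjusted p = 0.0483).

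**Figure D2:**
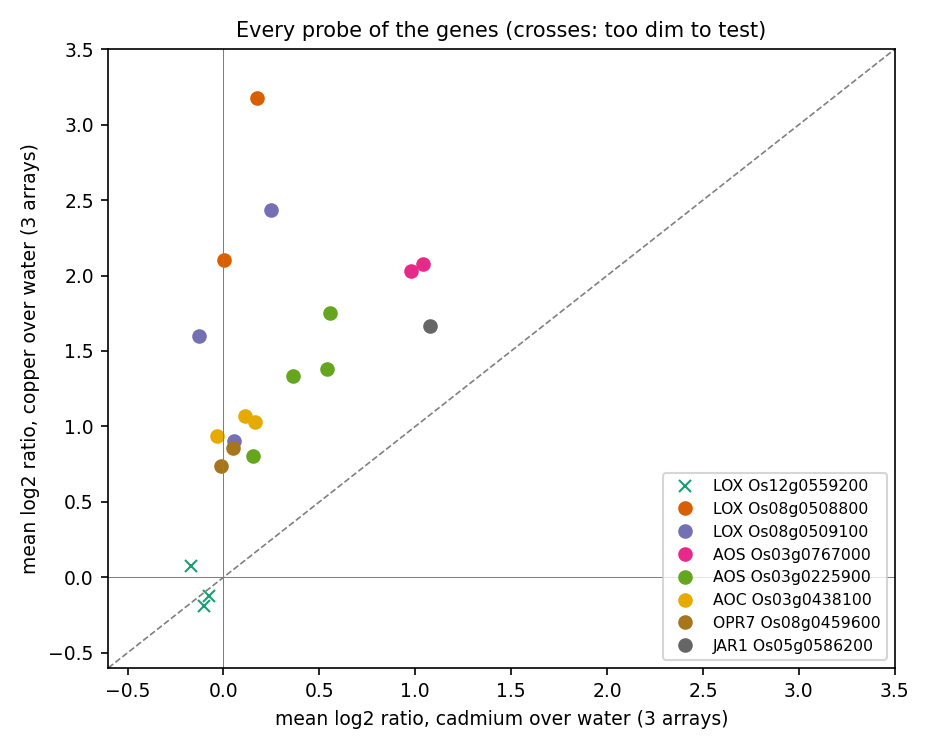
Mean log2 ratio over water with copper (vertical axis) against that with cadmium (horizontal axis) for all 20 probes of the 8 genes, each mean over 3 arrays (2 copper arrays for JAR1); colours mark the gene and the dashed line equal change. The 17 probes that could be tested lie above the line, and the 3 crosses are the dim probes of Os12g0559200. Some of the 17 passed the filter on dim spots only through their copper signal, which favours that side of the line. These are both probes of Os08g0508800, the probes of Os08g0509100 not chosen for the gene test, and a probe of Os03g0225900.

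AOC closes the ring of 12-oxophytodienoic acid in the plastid. Os03g0438100 read 0.57, 1.11 and 1.12 on the copper arrays and -0.20, 0.12 and -0.01 on the cadmium arrays. Copper values all lay above cadmium values, which scattered around no change. Copper raised it 1.91-fold (log2 0.94 ± 0.12 SE, adjusted p = 0.000773). With cadmium the change was -0.03 (adjusted p = 0.862), with a 95% interval from -0.32 to 0.25. Copper exceeded cadmium by 0.97 ± 0.17 (SE, adjusted p = 0.0122), and this difference missed the threshold without copper 2 or without copper 3 (adjusted p = 0.0557 in both). The 2 other probes gave copper changes of 1.03 and 1.07, with adjusted p-values of 5.66e-05 and 4.39e-05 over all probes.

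OPR7 is the rice OPR that reduces 12-oxophytodienoic acid on the way to jasmonic acid. The gene, Os08g0459600, had the smallest copper change of the 7 tested genes, and its copper arrays lay close together. Its ratios were 0.61, 0.76 and 0.85 with copper and -0.17, 0.13 and 0.00 with cadmium, with no overlap. It rose 1.67-fold with copper (log2 0.74 ± 0.09 SE, adjusted p = 0.000433). The cadmium change was -0.01 (adjusted p = 0.928, 95% interval -0.21 to 0.19), and copper exceeded cadmium by 0.75 ± 0.12 (SE, adjusted p = 0.00814). The second probe gave 0.86 with copper and 0.05 with cadmium.

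JAR1 makes the active isoleucine conjugate. Os05g0586200, on chromosome 5 and represented by 1 probe, rose with both metals. It read 1.71 and 1.62 on copper arrays 2 and 3, against 1.40, 1.04 and 0.79 on cadmium arrays 1 to 3. The copper 1 spot was marked as an outlier and left out, and it reads 0.74 when kept. The copper rise was 3.17-fold (log2 1.66 ± 0.15 SE, n = 2, adjusted p = 0.000224), or 1.36 on the log2 scale with that spot kept (adjusted p = 0.00116). The cadmium rise was 2.11-fold (1.08 ± 0.12 SE, n = 3, adjusted p = 0.000913). The difference of 0.59 ± 0.19 (SE) missed the threshold (adjusted p = 0.106, 95% interval 0.13 to 1.04). With the replicate number as a block it was 0.75 and passed (adjusted p = 0.0230), as it did without cadmium 1 (0.75, adjusted p = 0.0246), and with the outlier spot kept it was 0.28 (adjusted p = 0.587), with overlapping groups.

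**Figure D3:**
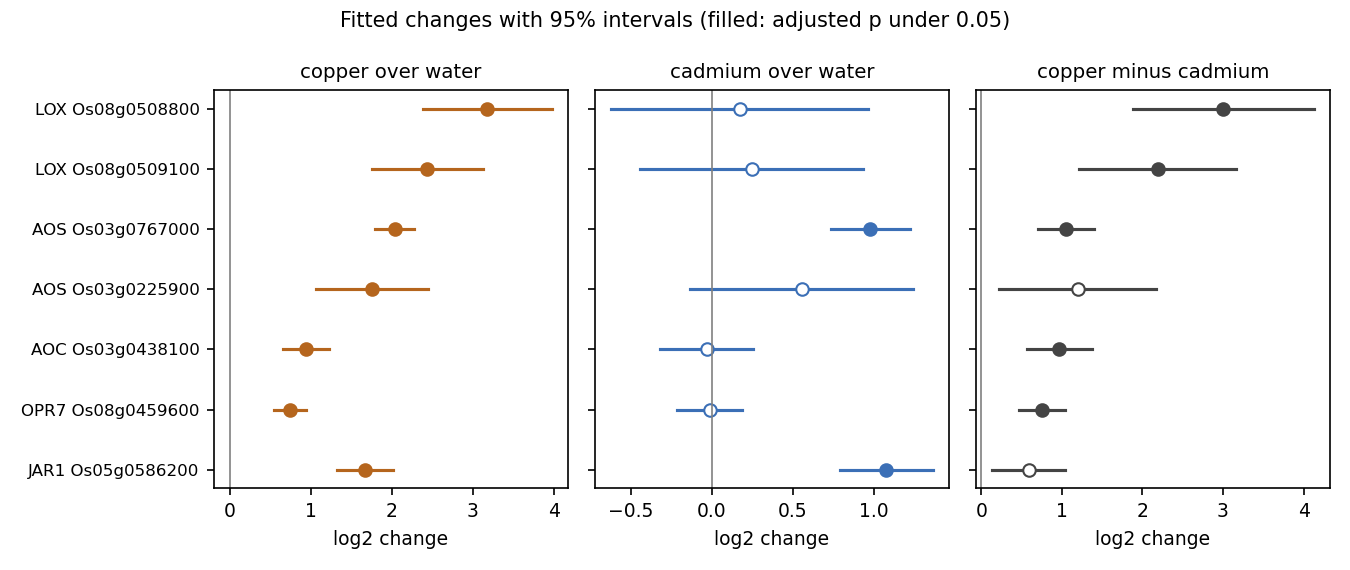
Fitted log2 changes (horizontal axes, on a scale of their own in each panel) with 95% intervals for the 7 tested genes (rows) for copper over water, cadmium over water and copper minus cadmium; filled points have an adjusted p under 0.05. All 7 copper points are filled, as are 2 for cadmium and 5 for the difference. Values of Os08g0508800 are over water signals not well above background.

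The genes ranked differently by the size of their change with copper and with cadmium. The largest copper change, in Os08g0508800 at 3.18, went with a cadmium change of 0.17. The largest cadmium changes, in JAR1 at 1.08 and AOS Os03g0767000 at 0.98, went with copper changes of 1.66 and 2.03. All copper ratios lay above all cadmium ratios in 6 of the 8 genes, JAR1 among them on its 2 copper values, and in 16.8% of all genes tested. Both genes called with cadmium were above background in both channels on all 6 arrays.

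The comparison of the metals was repeated within the 1 slide they shared. On that slide, copper exceeded cadmium by 2.73 at Os08g0509100 and 1.06 at Os03g0767000, and the fitted value at Os08g0508800, again over dim water signals, was 3.59. There the difference was 1.70 at Os03g0225900, 1.07 at AOC, 0.74 at OPR7 and 0.75 at JAR1, each with an adjusted p under the threshold (2 arrays per metal). In that fit 14.4% of all genes were called higher with copper than with cadmium. On the same slide 4 genes were called higher with cadmium, the 2 above and Os08g0509100 (log2 0.27, adjusted p = 0.0145) and Os03g0225900 (0.61, adjusted p = 0.000451), where 28.1% of all genes were. The tested probes of the copper-responsive lipoxygenases and of Os03g0225900 shared a low copper 1 value, which is also the array with the most outlier spots. The brighter AOC and OPR7 probes were lowest there too, at 0.57 and 0.61, as was JAR1 with its outlier spot kept, at 0.74. AOS Os03g0767000 was highest there, at 2.16. The part of the slide or of that array in this was not tested. With the scanner's own processed signals, which are background-subtracted, the copper changes of 3 dimmer probes were larger, at 5.88 for Os08g0508800, 3.49 for Os08g0509100 and 2.78 for Os03g0225900.

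Other loci, listed by enzyme family or by role in the pathway, were read from a list of 36 numbers written from general knowledge of rice annotation, with earlier results of these data known. Whether each listed locus takes part in jasmonate synthesis was not tested. Their class names could not be checked against the files, which carry locus numbers without gene names. All 36 were on the array and 30 could be tested. Copper raised 18 of these and lowered 2, while 10 stayed short of the threshold, and their median log2 change was 0.39. Cadmium raised 11 and lowered 3, while 16 stayed short of it, and their median was 0.30. Over all genes tested the median was 0.016 with copper and 0.011 with cadmium, and 25.4% of all genes were called higher and 17.4% lower with copper, while 21.1% were called higher and 12.9% lower with cadmium. Between the metals, 6 were higher and 3 lower with copper, while 6.57% of all genes were higher and 4.06% lower.

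Upstream of lipoxygenase, plastid omega-3 desaturases make linolenic acid. The 1 such locus that could be tested, Os03g0290300, read 2.62, 2.66 and 2.62 with copper, against 0.53, 1.18 and 0.99 with cadmium. The 3 copper arrays nearly coincided, and all lay above the cadmium arrays. It rose by 2.63 ± 0.12 with copper (adjusted p = 4.43e-06) and by 0.90 ± 0.12 with cadmium (adjusted p = 0.00108), and the difference of 1.73 ± 0.17 (SE) passed the test (adjusted p = 0.000973).

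Of 8 further loci listed as lipoxygenases, 5 rose with copper and 2 with cadmium, beside 25.4% and 21.1% of all genes; 2 of 8 is near that share. The largest copper changes were 1.99 at Os03g0700700, 1.95 at Os04g0447100 and 1.77 at Os03g0738600. The cadmium changes of these loci were 0.77 and 1.53, both past the test, and 0.43 (adjusted p = 0.160). The difference passed at Os03g0700700, at 1.22 (adjusted p = 0.00344), and at Os03g0738600, at 1.34 (adjusted p = 0.0302). At Os03g0738600 it missed the threshold without any one of copper 2 or 3 or cadmium 2 or 3, with adjusted p-values of 0.105 to 0.114, and with the replicate number as a block (0.0563). At Os04g0447100 the difference was 0.42 (adjusted p = 0.363).

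Other CYP74 enzymes divert the same hydroperoxides to different products. Os02g0218700 rose by 0.32 with copper and 0.38 with cadmium, and its copper call was lost without copper 2 (adjusted p = 0.0530) or copper 3 (0.0826). Os02g0218800 fell by 0.61 with cadmium, which missed the threshold without cadmium 3 (adjusted p = 0.0585), and its change with copper was 0.03 (adjusted p = 0.861).

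Of 7 other loci listed as OPR genes, 4 rose and 2 fell with copper, beside 25.4% and 17.4% of all genes. With cadmium 5 rose and 2 fell, beside 21.1% and 12.9%. One of the cadmium rises, Os06g0215500, passed the filter on dim spots only through its cadmium signal, being above background in 1 of 3 copper-treated and in 0 of 6 water samples. At 3 of the 7 the change was lower with copper than with cadmium by the test of the difference, beside 4.06% of all genes. This is the opposite order to OPR7. Os06g0215500 had that order too, at 0.06 with copper and 0.76 with cadmium, but missed the threshold (adjusted p = 0.0973). At Os01g0370000 the change was higher with copper, at -0.92 against -1.47 with cadmium. That difference of 0.55 (adjusted p = 0.0317) missed the threshold when any array but copper 1 was left out (0.0501 to 0.113). These 2 loci were named after their values were seen. Os06g0216300 read 1.65, 1.54 and 1.60 with copper, against 3.43, 3.72 and 3.62 with cadmium. Here every cadmium array lay far above every copper array. Its fitted change was 1.60 with copper and 3.59 with cadmium, and copper minus cadmium was -1.99 ± 0.11 (SE, adjusted p = 0.000163). Os06g0216200 gave nearly the same values, 1.56 with copper and 3.55 with cadmium, with a difference of -1.99 (adjusted p = 0.000132). Os06g0215600 rose by 2.05 with copper and 3.01 with cadmium, a difference of -0.95 (adjusted p = 0.0236) that missed the threshold without copper 2 or 3 or cadmium 2 or 3 (0.0755 to 0.0961) and in 8 of 20 alternatives in all. These loci have close numbers on chromosome 6, and whether their probes bind each other's transcripts was not tested. Their part in jasmonate synthesis was not tested either. OPR7 itself rose with copper and was near no change with cadmium, as given above.

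Peroxisomal beta-oxidation follows OPR. Of 6 loci listed for it, 5 rose with copper, beside 25.4% of all genes. With cadmium 0 passed by limma (1 at an unadjusted p under 0.05), where 21.1% of all genes were called higher and 12.9% lower. The largest copper rises were Os02g0274100 at 0.80, Os05g0163700 at 0.75 and Os06g0103500 at 0.73, with cadmium changes of 0.08, 0.31 and 0.14. The difference between metals passed at Os02g0274100 (0.72, adjusted p = 0.0427) and Os06g0103500 (0.59, adjusted p = 0.0469). Of 20 alternatives, the first missed the threshold in 9 and the second in 10. Neither passed without copper 2, copper 3, cadmium 1, cadmium 2 or cadmium 3, with adjusted p-values of 0.0834 to 0.142 at the first and 0.0917 to 0.171 at the second. At Os05g0163700 the difference was 0.44 (adjusted p = 0.274).

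**Figure D4:**
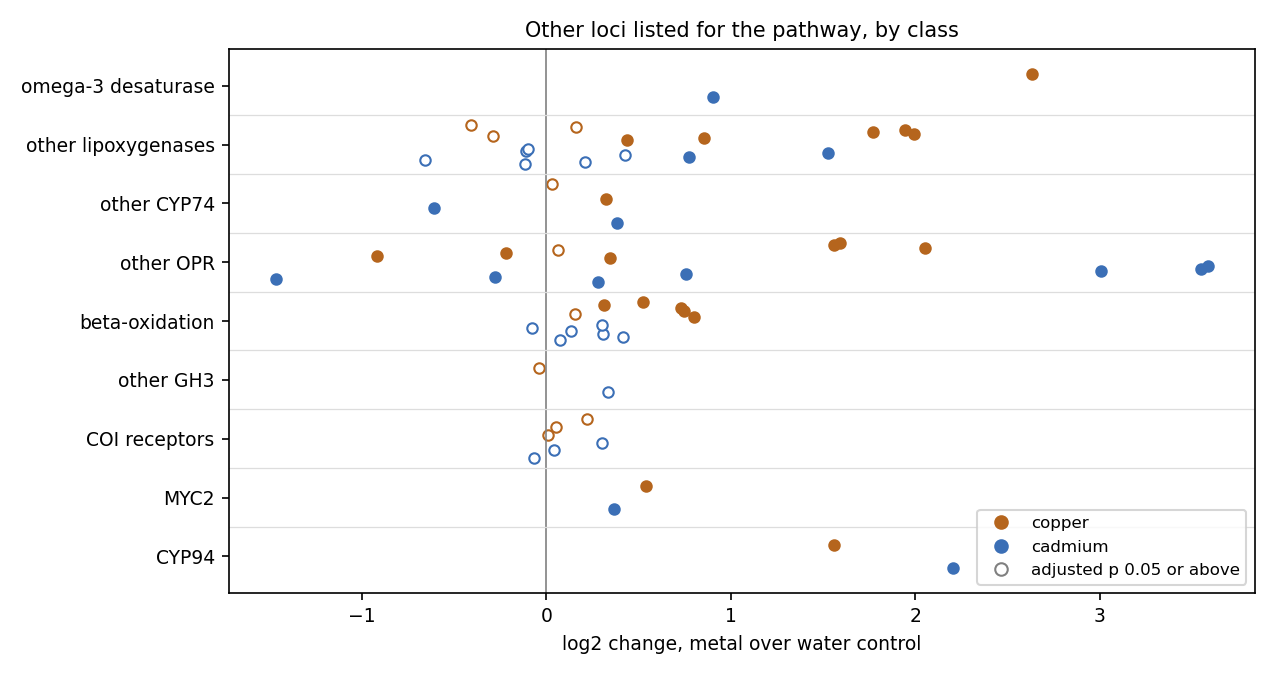
Fitted log2 change over water (horizontal axis) of the 30 tested loci of the pathway list by class (rows), with copper above cadmium in each row; open points have an adjusted p of 0.05 or above. Cadmium points lie furthest right among the other OPR loci, and the copper change exceeds the cadmium change at the omega-3 desaturase and at 5 of the 6 beta-oxidation loci. Over all genes the median difference was -0.008. The difference passed the test at the desaturase and at 2 of the beta-oxidation loci, beside 6.57% of all genes higher with copper. Neither beta-oxidation call held without copper 2, copper 3 or any 1 cadmium array.

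Downstream of synthesis, 0 of the 3 loci listed as COI receptors passed with either metal by limma (0 with copper and 1 with cadmium at an unadjusted p under 0.05), and their fitted log2 changes lay between -0.07 and 0.30. Of all genes, 25.4% were called higher and 17.4% lower with copper, and 21.1% higher and 12.9% lower with cadmium. The transcription factor MYC2, listed as Os10g0575000, read 0.27, 0.58 and 0.76 with copper, against 0.17, 0.60 and 0.35 with cadmium. Its rise was 0.54 with copper (adjusted p = 0.00780), while cadmium raised it by 0.37 (adjusted p = 0.0428). The copper call was lost without copper 3 (adjusted p = 0.0640), and the cadmium call without copper 2 (0.0696), cadmium 2 (0.225) or cadmium 3 (0.124). The cadmium call was also lost with the slide as a random block (adjusted p = 0.164), and in 9 of 20 alternatives in all. Both were lost with the scanner's processed signals (adjusted p = 0.0813 with copper and 0.254 with cadmium). Further jasmonate-conjugating GH3 enzymes, the family of JAR1, had 1 tested locus, which passed with neither metal. Os12g0150200, listed as a CYP94 enzyme that inactivates the isoleucine conjugate, rose by 1.56 with copper (adjusted p = 0.000372), while its rise with cadmium was 2.20 on 2 arrays (adjusted p = 0.000274). Its difference of -0.64 missed the threshold (adjusted p = 0.156).

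The genes other than these 8 whose 6 ratios were closest to those of lipoxygenase Os08g0508800 were Os11g0702400, Os01g0796000 and Os03g0812400. Their root mean square distances from it were 0.33, 0.35 and 0.35 on the log2 scale over 6 arrays. Os11g0702400 read 2.33, 4.10 and 3.88 with copper, against 0.08, 0.25 and -0.39 with cadmium. This closeness is a description of these arrays.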

How the data were processed

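Spot intensity in the scanner files was deposited as Feature Extraction 10.7.1.1 wrote it, per the file headers: median spot and local background brightness, not normalized. The processed intensity and the log10 ratio (Cy5 over Cy3) were also made by that program, per the file headers. The authors' series table holds 42475 probes and is on a log2 scale in the direction metal over water, as its correlation with the scanner's ratio of 0.988 to 1.000 shows; its column medians lie between -0.191 and -0.050, while how it was centred is unknown.

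Median signals were used because the files hold no mean signals. Background was corrected with normexp (offset 50), arrays were normalized by loess with control and outlier spots at weight 0, outlier spots were left out and spots of a probe averaged. A probe was kept if either channel was well above background on each of the 3 arrays of either metal and if both metals had 2 or more values (33701 of 42477, and 17 of the 20 of the jasmonate genes). The probe of highest mean intensity stood for a gene. limma 3.58.1 in R 4.3.3 fitted all 6 arrays with a coefficient per metal, so both metals share 1 estimate of spread, and p-values were adjusted by Benjamini-Hochberg over 23423 genes. Intervals are unadjusted. Where a group was not above background, "at least" folds set the brighter mean against the higher of the dim probe's own signal and the lowest signal above background on each array, per channel after loess and Aquantile scaling, and stay open to dye bias. No spot of the arrays was saturated. The number of arrays limits the precision.

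Same-numbered copper and cadmium arrays deviated together from their group means (correlations 0.37, 0.24 and 0.27, where the highest with another number was -0.27, 0.23 and 0.19). By a bound of 0.1 the numbers were taken as pairs, and a block on them was an alternative. Arrays 2 and 3 of both metals share a slide and correlated nearly as well across numbers, so pairing and slide cannot be told apart there. The other alternatives were background, scaling, filter, outlier spots, probe choice, left-out arrays and slide. Named genes are all 8 loci and, of the pathway list, at most 3 called loci per class and metal by size. The genes, lists and tests were chosen with earlier results of these data known. Locus numbers and probe accessions had 0 matches among the reference genes, so no sequence, coordinate or name comes from there.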

Additional observations from a re-analysis of the deposited data

Results flagged for a closer look

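In 14 results the change with copper and the change with cadmium differed by the test of the difference itself (copper minus cadmium on the log2 scale, limma, adjusted p under 0.05 over all genes). They come from 7 tested jasmonate synthesis genes and 30 tested loci of the pathway list. By the same test 6.57% of all genes were higher and 4.06% lower with copper. Among the jasmonate synthesis genes the differences were 2.19 at lipoxygenase Os08g0509100, 1.05 at AOS Os03g0767000, 0.97 at AOC Os03g0438100 and 0.75 at OPR7 Os08g0459600. At lipoxygenase Os08g0508800 the fitted value was 3.01, for a probe that passed the filter only through copper and was not above background in water. In each of these every copper array lay above every cadmium array. Among other loci of the pathway list they were 1.73 at the omega-3 desaturase Os03g0290300, 1.22 and 1.34 at lipoxygenases Os03g0700700 and Os03g0738600, and 0.72 and 0.59 at the beta-oxidation loci Os02g0274100 and Os06g0103500, and 0.55 at Os01g0370000, listed as an OPR gene. Another 3 loci listed as OPR genes, on chromosome 6, went the other way, with -1.99 at Os06g0216300, -1.99 at Os06g0216200 and -0.95 at Os06g0215600. Of 20 alternatives, the call was lost in 10 at Os06g0103500, 9 at Os02g0274100 and 8 at Os06g0215600. It was lost in 5 each at Os03g0738600 and Os01g0370000, in 4 at Os08g0509100 and in 2 at Os03g0438100.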

How the results depend on the processing

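The copper calls of the 7 tested genes kept their direction and their call under every alternative that could be fitted (19 or 20 each). The number of genes called with copper stayed at 7 when 1 array was left out and was 6 under the stricter filter, which removes Os08g0508800. With cadmium the count was 2 to 4 when 1 array was left out: it was 4 without copper replicate 1 and also 4 with only the slide that holds both metals. With only the cadmium arrays in the fit the cadmium count was 3, Os03g0225900 being added. Between the metals it was 3 to 6 when 1 array was left out (3 without copper replicate 2 or 3, against 5), and 7 with the slide as a random or fixed block or with that slide alone. With the replicate number as a block it was 6, JAR1 being added, and no other call of the 8 genes changed. Fitted changes of dim genes depend on the background: at Os08g0508800 copper gave 3.95 with an offset of 16 and 5.88 with the scanner's processed signals, against 3.18.

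Some cadmium changes turned direction in settings where the turned value did not pass the test; of these genes, Os08g0509100 passed as higher in other settings (0.25 without copper 1 and 0.27 with the shared slide alone). With the slide as a random block they were -0.27 at Os08g0508800 and -0.14 at Os08g0509100. At AOC Os03g0438100 the value, -0.03 as reported, was 0.0325 with processed signals centred on the median, 0.0489 with median centring, 0.0826 with the mean of probes and 0.0521 with the shared slide alone, and it lay between -0.105 and 0.0521 when 1 array was left out, the last without cadmium 1. At OPR7 Os08g0459600 the value, -0.01 as reported, was 0.0185 with centred processed signals, 0.0190 with the mean of probes and 0.0671 with the shared slide alone, and it lay between -0.0830 and 0.0671 when 1 array was left out, again the last without cadmium 1. The cause was not tested. The uncentred processed signals moved the median of all genes to -0.133 for copper and -0.106 for cadmium.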
